A study of Mus musculus with 7 samples.

Results

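The 9 genes described here encode receptors and bridging ligands with which phagocytes bind dying cells and modified proteins: Mertk, Axl, Gas6, Pros1, Mrc1, Msr1, Stab1, Cd36 and Marco. They were taken by symbol from the 33696 genes counted in single-cell RNA-Seq of mouse malignant peripheral nerve sheath tumors (MPNSTs), sarcomas that arise in neurofibromatosis. All tumors grew from JW23.3, a mouse MPNST line mutant for Nf1 and Trp53, of which 5 x 1000000 cells were placed under the skin of the flank of female wildtype C57/B6 mice 5 to 6 weeks of age. Mice were randomized on day 7, and 4 tumors received focal radiation as 5 daily fractions of 2 Gy while 3 stayed unirradiated (control). Tumors were taken on day 21 and dissociated with papain, and 10000 cells of each were loaded for 3′ counting. The 7 tumors are the replicates, and since all came from 1 line and 1 time point, no spread between lines or times is contained in what follows.

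Macrophages clear apoptotic cells by efferocytosis. Mertk and Axl are receptor tyrosine kinases of the TAM family and do not bind the dying cell directly: the secreted proteins Gas6 and Pros1 (protein S, also a blood anticoagulant) bridge TAM receptors to phosphatidylserine exposed on its surface, with Gas6 a ligand of both Mertk and Axl and Pros1 known chiefly as a ligand of Mertk. Mertk is known as the TAM receptor of resting tissue macrophages, and Axl as one that inflammatory signals such as interferon induce. Mrc1 (CD206) is a mannose receptor widely used as a marker of tissue and tumor-associated macrophages, and Stab1 is a clearance receptor of macrophages and sinusoidal endothelium. Msr1 and Marco are class A scavenger receptors, and Cd36 is a fatty acid and oxidized lipid receptor of macrophages and microvascular endothelium.

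Of 39537 deposited cells 34296 passed filters on UMIs (unique molecular identifiers, each marking a captured transcript), genes, and mitochondrial and ribosomal share. Libraries held 2341 to 7447 retained cells, the median over all deposited cells of a library was 6058.5 to 17930.5 UMIs, and any pair of libraries had 3 to 19 cell barcodes in common. Clustering without the 9 genes gave 30 clusters, of which 3 (653 cells) stayed unnamed and the others were named from marker lists: 12614 macrophage-like cells in 7 clusters, 17627 MPNST-like cells in 13 clusters, 1577 T/NK-like, 623 endothelial-like, 483 fibroblast-like, 408 dendritic-like, 241 pericyte-like and 70 keratinocyte-like cells, the last not described further. The 14 macrophage markers summed to 25449.5 to 32709 CPM in the macrophage-like cells of the 7 tumors and to 80.4 to 219 in the MPNST-like cells, where CPM is counts per 1000000 UMIs of all cells of a class in a tumor. Levels below are in CPM, and pericyte-like cells of irradiated tumor 4 were left out because only 13 were found. Classes came from clustering, so levels between classes are described by their spread over tumors, without a test. No label names a batch. The split of the libraries that left the least spread in handling measures (how many cells were deposited, their depth, and their mitochondrial and stress gene content) put irradiated 1, control 2 and control 3 in a first technical set and the other tumors in a second, and the sets did not overlap in cell number and median UMIs but did in the other measures. A share of 0.55 of the spread stayed within these sets, beside 0.61 for the next best of 63 splits. The sets are thus a loose description and not a known batch.

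Gas6, Mrc1, Stab1 and Mertk are shown by their upstream sequence because they were, with Msr1, the members with the largest increases in the resident macrophages described below. Each sequence is the 250 bases before the annotated start of the gene from the RefSeq promoter table (build GRCm38.p6), 5′ to 3′ on the gene's strand. Capitals mark GAGGAA or its reverse complement TTCCTC, a core that PU.1, a transcription factor of the macrophage lineage, and other ETS factors can bind.
Mrc1 (chr2:14229164-14229413, plus strand): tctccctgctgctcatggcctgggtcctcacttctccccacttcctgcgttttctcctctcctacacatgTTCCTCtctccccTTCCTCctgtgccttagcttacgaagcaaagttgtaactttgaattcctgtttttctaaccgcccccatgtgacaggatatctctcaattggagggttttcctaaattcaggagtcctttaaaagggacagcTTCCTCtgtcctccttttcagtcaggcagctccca
Stab1 (chr14:31168642-31168891, minus strand): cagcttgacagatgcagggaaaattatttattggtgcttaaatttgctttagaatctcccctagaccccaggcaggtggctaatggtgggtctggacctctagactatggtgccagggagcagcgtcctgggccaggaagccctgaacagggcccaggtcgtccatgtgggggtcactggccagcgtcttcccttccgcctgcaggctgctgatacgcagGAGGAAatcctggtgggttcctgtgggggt
Gas6 (chr8:13494536-13494785, minus strand): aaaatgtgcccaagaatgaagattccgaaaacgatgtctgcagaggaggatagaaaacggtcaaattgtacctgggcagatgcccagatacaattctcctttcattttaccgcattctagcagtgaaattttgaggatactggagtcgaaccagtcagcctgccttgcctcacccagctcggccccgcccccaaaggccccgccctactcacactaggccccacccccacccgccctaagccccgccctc
Mertk (chr2:128698665-128698914, plus strand): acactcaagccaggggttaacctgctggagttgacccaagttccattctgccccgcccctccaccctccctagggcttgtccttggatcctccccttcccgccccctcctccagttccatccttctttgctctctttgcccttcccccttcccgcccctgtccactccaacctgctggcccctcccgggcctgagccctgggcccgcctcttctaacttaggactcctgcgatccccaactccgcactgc
The Mrc1 window held 3 matches, the Stab1 window 1, and the Gas6 and Mertk windows 0. Of the 8 members with an entry in that table (all but Msr1) 4 held a match, the others being Axl and Marco with 1 each. A match on either strand stood in 7639 of 32851 promoters, or 23.3%, so these letters are common, and a match does not show binding.

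The TAM receptors were divided between macrophages and tumor cells. Mertk was highest in macrophage-like cells, at 340.3, 229, 261 and 213 CPM in irradiated tumors 1 to 4 and 267, 235 and 342 in control tumors 1 to 3. MPNST-like cells of the same tumors held 36.5 to 46.3, with no overlap, and the mean was 6.73-fold higher in macrophage-like cells (269.6 ± 52.4 against 40.0 ± 3.05 CPM, SD, n = 7). MPNST-like cells still held 36.6% ± 7.54 (SD, n = 7) of all Mertk UMIs, beside 57.9% ± 8.71 in macrophage-like cells. Pericyte-like (57.0 ± 17.2, SD, n = 6), fibroblast-like and endothelial-like cells overlapped the MPNST-like range, whereas dendritic-like and T/NK-like cells averaged 13.5 and 12.4, or 12.3 and 2.43 without doublets. Of T/NK-like cells, the class with the lowest mean, 2.35% had a Mertk UMI at a median depth of 3077 UMIs. This compared with 55.4% of macrophage-like cells at 6416.5 and 45.2% of MPNST-like cells at 22143.

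Axl had no such gap. Macrophage-like cells held 175, 169.8, 144 and 144 CPM in irradiated tumors 1 to 4 and 144, 145 and 177 in control tumors 1 to 3. MPNST-like cells held 113, 115, 136 and 171 in irradiated tumors 1 to 4 and 128, 105 and 112 in control tumors 1 to 3. Macrophage-like cells were higher in 6 of 7 tumors, the exception being irradiated tumor 4, but the ranges overlapped. The highest mean was in pericyte-like cells (196 ± 46.1, SD, n = 6), and neighbours in the order from pericyte-like through macrophage-like and fibroblast-like (154 ± 34.7) to MPNST-like cells (126 ± 22.5) did not differ beyond their spread. Dendritic-like cells followed at 85.6 ± 16.9 (SD, n = 7), below every MPNST-like value and above every T/NK-like value (27.2 to 41.3). By number of UMIs Axl lay mostly in MPNST-like cells, with 71.7% ± 8.28 of its UMIs, beside 22.7% ± 7.86 in macrophage-like cells (SD, n = 7). MPNST-like cells also held most UMIs of all genes, 472158341 beside 103104570 in macrophage-like cells. Such a share therefore does not by itself set Axl apart from other genes.

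The bridging ligands were distributed differently. Gas6 in MPNST-like cells averaged 1.12 CPM, under the 7.03 of T/NK-like cells, and is read as background there. Macrophage-like cells held 240.2, 147, 148 and 72.04 CPM in irradiated tumors 1 to 4 and 164, 162 and 236 in control tumors 1 to 3, and with 80.4% ± 3.68 (SD, n = 7) of Gas6 UMIs they were its main holder. The level was higher still in fibroblast-like cells, 184 to 588, above macrophage-like cells in 7 of 7 tumors although the ranges overlapped, and endothelial-like cells (30.9 to 139.8) came after both. Pros1 had 75.7% ± 4.77 of its UMIs in MPNST-like cells, which held most UMIs of all genes, and 13.9% ± 3.00 in macrophage-like cells (SD, n = 7).

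As a level Pros1 was highest in the stroma. Fibroblast-like cells averaged 171 ± 44.5 CPM, pericyte-like cells 120.1 ± 29.2 and endothelial-like cells 97.8 ± 16.9 (SD, n = 7, 6 and 7), and every endothelial-like value lay above every MPNST-like value (39.1 to 58.0). MPNST-like and macrophage-like cells (19.6 to 46.2) overlapped, with MPNST-like cells higher in 5 of 7 tumors. As shares of their UMIs, then, Mertk and Gas6 lay chiefly in macrophage-like cells of the same tumors. Axl and Pros1 lay chiefly in MPNST-like cells, the class with the most UMIs of all genes.

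Mrc1, Msr1 and Stab1 were highest in macrophage-like cells, without overlap with any other class. Mrc1 stood at 1043, 823, 793 and 456 CPM in irradiated tumors 1 to 4 and 848, 837 and 947 in control tumors 1 to 3, with irradiated tumor 4 the lowest of all. The next class, dendritic-like cells, held 22.2 to 191, and MPNST-like cells 1.49 to 6.96, and 91.4% ± 3.098 (SD, n = 7) of Mrc1 UMIs lay in macrophage-like cells. Msr1 ranged from 149 to 257 in macrophage-like cells with no other class above 35.1 in any tumor. Of its UMIs 92.3% ± 3.33 (SD, n = 7) were in macrophage-like cells. Stab1 ranged from 238 to 367 in macrophage-like cells and from 53.1 to 123 in endothelial-like cells, which lay below every macrophage-like value and above every pericyte-like value.

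Cd36 was highest in endothelium. Endothelial-like cells held 139, 329, 319 and 575 CPM in irradiated tumors 1 to 4 and 78.9, 214 and 96.3 in control tumors 1 to 3, compared with 7.18 to 18.8 in macrophage-like cells, a mean 19.6-fold higher with no overlap. These sums rest on 25 to 231 endothelial-like cells per tumor, and pericyte-like cells came next (19.3 to 148), overlapping the endothelial-like range. Of macrophage-like cells 3.0997% had a Cd36 UMI, and together they carried 47.2% ± 12.1 (SD, n = 7) of its UMIs, beside 41.1% ± 15.01 in endothelial-like cells. Marco was all but undetected, with 7 UMIs in 34296 cells, 6 of them in macrophage-like cells. A count of 0, as in the dendritic-like cells, allows up to 3 counts there, or 0.776 CPM, a limit that covers counting error only.

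**Figure D1:**
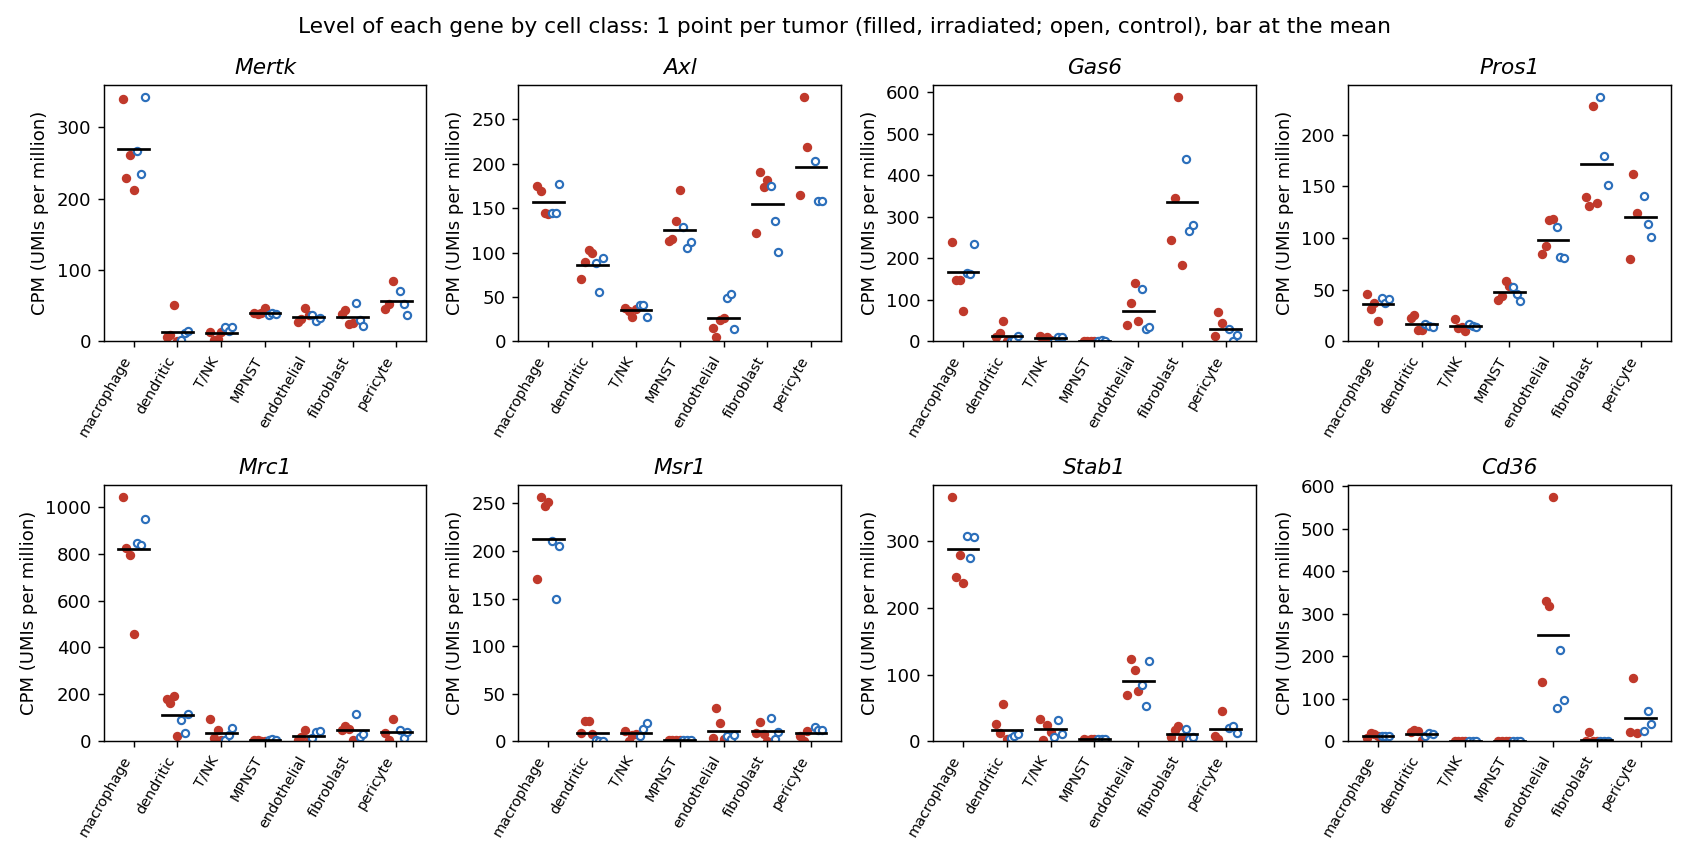
Level of 8 genes in CPM (y axis) in 7 cell classes (x axis), with 1 point per tumor, filled for irradiated and open for control, and a bar at the mean. Macrophage-like cells stand apart for Mertk, Mrc1, Msr1 and Stab1, fibroblast-like cells have the highest mean for Gas6 and Pros1, and endothelial-like cells for Cd36.

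**Figure D2:**
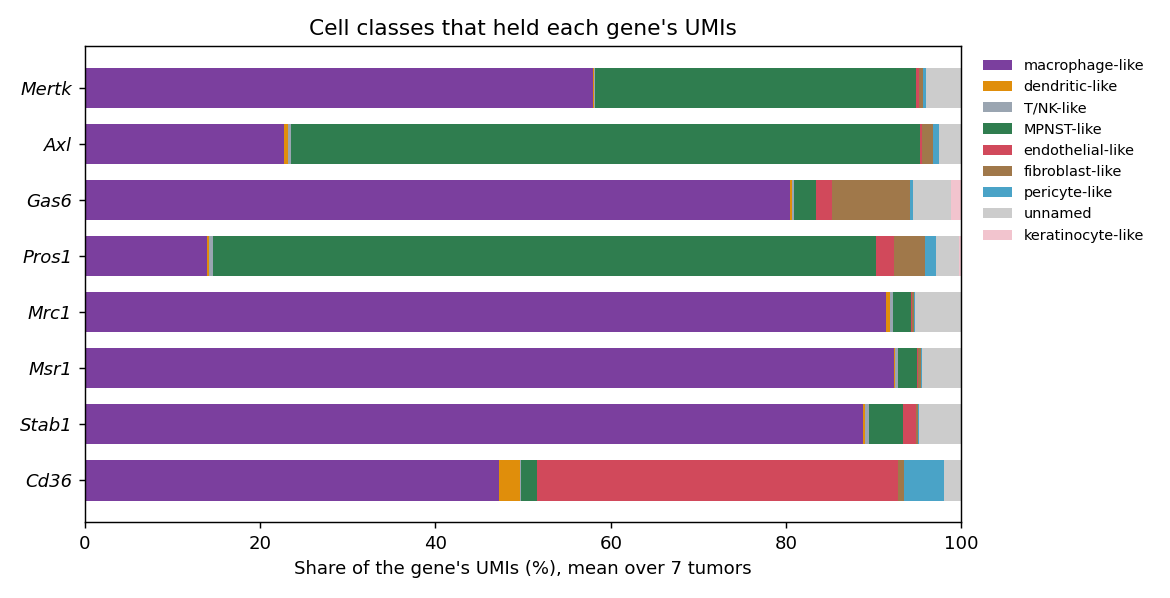
Share of each gene's UMIs (x axis, percent, mean over 7 tumors) held by each cell class. Axl and Pros1 lie mostly in MPNST-like cells (71.7% and 75.7%), and Gas6, Mrc1, Msr1 and Stab1 mostly in macrophage-like cells (80.4% to 92.3%). MPNST-like cells held most UMIs of all genes.

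To ask which macrophages carried the genes, the 9906 macrophage-like cells with at least 3000 UMIs were each thinned to 3000 UMIs and split by 8 gates, each a small set of marker genes that held none of the members. UMIs of gate-positive and gate-negative cells were summed per tumor and compared within tumors by edgeR, with p-values adjusted over all genes tested. Cells below 3000 UMIs, which were left out, were 15.6% of macrophage-like cells in irradiated and 26.4% in control tumors. Gates were not exclusive: 69.4% of resident-gate cells were also in the upper C1q gate, and 41.8% of Chil3 Slfn4 Arg1-gate cells were also in the monocyte gate. A gate on Trem2 and Gpnmb together had only 42 positive cells, under 20 in every tumor, and was not tested. Marco was too low to be tested in any gate.

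The resident gate (at least 2 of Folr2, Lyve1, F13a1 and Cbr2, genes of tissue-resident macrophages) took 20.9% of the cells. Gas6 in resident-gate cells was 412, 363, 326 and 212 CPM in irradiated tumors 1 to 4 and 348, 351 and 409 in control tumors 1 to 3, and 53.4 to 179 in the remaining cells, with no overlap. Its log2 fold change was 1.69 ± 0.10 (SE, adjusted p = 5.8e-07, higher in 7 of 7 tumors). Mrc1 averaged 1429 ± 193 against 662 ± 162 CPM (SD, n = 7, log2 fold change 1.21 ± 0.11, adjusted p = 2.4e-05) and Stab1 485 ± 55.0 against 237 ± 33.9 (1.11 ± 0.06, adjusted p = 3e-11), again without overlap. Msr1 (0.73 ± 0.05), Mertk (0.71 ± 0.06) and Pros1 (0.48 ± 0.07) were higher too in 7 of 7 tumors. Axl went the other way, 116 ± 22.4 against 168 ± 17.4, lower in 7 of 7 tumors without overlap (log2 fold change -0.46 ± 0.06, adjusted p = 4.5e-06). Of 8 members tested 6 were higher and 1 lower, while 16.5% of all 11364 genes tested were higher and 16.6% lower. Cd36 was not called (-0.04 ± 0.18).

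The C1q gate took the cells above their own tumor's median for C1qa, C1qb and C1qc, subunits of the complement protein that also coats dying cells. Members called were 7 of 8, all higher (background 19.6% higher and 19.8% lower of 11444 genes). Gas6 had the largest fold change, from 97.6 ± 47.9 to 233 ± 71.8 CPM (SD, n = 7, log2 fold change 1.46 ± 0.11, adjusted p = 3.6e-06), followed by Stab1 (0.79 ± 0.07), Mrc1 (0.72 ± 0.08), Pros1 (0.71 ± 0.07) and Mertk (0.69 ± 0.11), each higher in 7 of 7 tumors. Axl (0.22 ± 0.05) and Msr1 (0.25 ± 0.07) had small increases. With total UMIs in place of TMM scaling, which moved the median of all genes by -0.11, neither was called any longer (Axl 0.12, adjusted p = 0.064, and Msr1 0.14, adjusted p = 0.11), nor with unthinned gates (adjusted p = 0.066 and 0.08). Cd36 was not called (-0.04 ± 0.47).

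Monocyte-gate cells (Ly6c2 with at least 1 of 4 genes of circulating monocytes that include Ccr2, Plac8 and Vcan) were 7.34% of the cells and carried little Gas6. Their Gas6 level was 55.7, 23.5, 6.27 and 7.91 CPM in irradiated tumors 1 to 4 and 6.43, 5.06 and 8.58 in control tumors 1 to 3, against 86.8 to 239 in the remaining cells, a log2 fold change of -3.48 ± 0.19 (SE, adjusted p = 2.1e-13). The highest of these values came from irradiated tumor 1, with 20 such cells, the fewest of any tumor. Mrc1 fell by 2.21 ± 0.16 on the log2 scale (179 ± 54.9 against 848 ± 162 CPM, SD, n = 7), Pros1 by 1.63 ± 0.20, Stab1 by 1.32 ± 0.11 and Mertk by 1.19 ± 0.11, each lower in 7 of 7 tumors. Axl was higher, 187 ± 36.3 against 156 ± 16.2 (0.28 ± 0.10, adjusted p = 0.016, in 6 of 7 tumors). The call on Axl was lost with DESeq2 (adjusted p = 0.053), with all genes kept (adjusted p = 0.13) and without irradiated tumor 3 (adjusted p = 0.083). Msr1 (-0.13 ± 0.10) and Cd36 (1.06 ± 0.80, but 0.0661 without control tumor 1) were not called. In total 1 member was higher and 5 were lower, with 15.8% of 11467 genes higher and 16.6% lower.

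Cells of the Chil3 Slfn4 Arg1 gate (at least 2 of Chil3, Slfn4, Arg1 and Clec4e, genes of inflammatory macrophages) were compared in 6 tumors because irradiated tumor 1 had only 18 of them. Msr1 was higher, 281 ± 71.6 against 213 ± 36.2 CPM (SD, n = 6, log2 fold change 0.48 ± 0.08, adjusted p = 1.6e-05, in 6 of 6 tumors). Pros1 fell by 1.12 ± 0.17, Gas6 by 1.05 ± 0.19, Mrc1 by 0.65 ± 0.11, Mertk by 0.56 ± 0.16 and Stab1 by 0.37 ± 0.09, each lower in 6 of 6 tumors. Mertk was no longer called without irradiated tumor 2 (adjusted p = 0.11), irradiated tumor 3 (adjusted p = 0.1) or control tumor 2 (adjusted p = 0.055). Axl was not called (-0.16 ± 0.08), but was called lower with total UMIs (-0.24, adjusted p = 0.035) and with unthinned gates (-0.34). Cd36 was 65.3, 38.8 and 18.6 CPM in irradiated tumors 2 to 4 and 107, 5.00 and 59.5 in controls, against 4.803 to 14.8 outside the gate, and was not called (2.29 ± 0.64, adjusted p = 0.07, higher in 5 of 6 tumors). It was called without control tumor 1 (1.63, adjusted p = 0.0043) and with DESeq2 (1.92, adjusted p = 0.019). Background for 1 member higher and 5 lower was 11.4% higher and 7.57% lower of 11552 genes.

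Cells with a UMI of Cxcl9, a chemokine induced by interferon gamma, were rich in Axl. Axl in Cxcl9-gate cells stood at 269, 283, 221 and 188 CPM in irradiated tumors 1 to 4 and 258, 244 and 281 in control tumors 1 to 3, and at 135 to 175 in the remaining cells, with no overlap (log2 fold change 0.71 ± 0.07, adjusted p = 5.6e-09, higher in 7 of 7 tumors). Mertk in the same cells was 271 ± 73.3 against 272 ± 53.9 (SD, n = 7), a log2 difference of -0.03 ± 0.08. Mrc1 fell by 0.66 ± 0.08 and Stab1 by 0.49 ± 0.08, each in 7 of 7 tumors. The lower Gas6 (-0.79 ± 0.18, in 6 of 7 tumors) and Msr1 (-0.24 ± 0.08, in 7 of 7) passed the threshold narrowly. With 1 tumor left out the log2 fold change of Gas6 stayed between -1.01 and -0.69 and that of Msr1 between -0.25 and -0.18, but the call on Gas6 was lost without any of irradiated 1, 2 and 3 and control 1, 2 and 3 (adjusted p between 0.055 and 0.14) and that on Msr1 without any of the 7 (adjusted p between 0.065 and 0.3). In this comparison 4.12% of 11465 genes were higher and 2.73% lower, and 1 member was higher and 4 were lower.

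Osteoclast-gate cells (at least 2 of Acp5, Atp6v0d2, Ocstamp, Dcstamp and St18, genes of bone-resorbing cells) were 3.52% of the cells and held less of most members. Mrc1 averaged 155 ± 42.5 against 855 ± 189 CPM (SD, n = 7, log2 fold change -2.57 ± 0.19, adjusted p = 1.8e-06) with no overlap. Gas6 fell by 2.40 ± 0.31, Stab1 by 2.29 ± 0.30, Mertk by 1.63 ± 0.25 and Msr1 by 1.44 ± 0.12, each in 7 of 7 tumors. The decreases of Axl (-0.39 ± 0.10) and Pros1 (-0.80 ± 0.28) ended when the gate was read on unthinned UMIs (adjusted p = 0.81 and 0.66). Pros1 was also lost without any of irradiated 1, 2 and 3 and control 1 and 2 (adjusted p between 0.051 and 0.097). All 7 called members were lower, with 25.7% of 11396 genes lower and 19.2% higher.

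Cycling-gate cells (at least 3 of 8 mitotic genes) were 6.63% of macrophage-like cells. All 8 members tested were called lower in them, beside 24.8% of 11391 genes lower and 22.6% higher. Gas6 fell by 1.54 ± 0.14 on the log2 scale, Mertk by 0.94 ± 0.06, Stab1 by 0.79 ± 0.09, Mrc1 and Pros1 by 0.48 each and Axl by 0.33 ± 0.06, all in 7 of 7 tumors. Msr1 (-0.16 ± 0.06) was lower in only 3 of 7 tumors in CPM, and it lost its call with DESeq2 (adjusted p = 0.072), total UMIs (adjusted p = 0.37) and unthinned gates (adjusted p = 0.17) and without any tumor but irradiated 2 (adjusted p between 0.061 and 0.24). Cd36 (-2.11 ± 0.57) lost its call with unthinned gates (adjusted p = 0.59) and without control tumor 2 (adjusted p = 0.058).

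**Figure D3:**
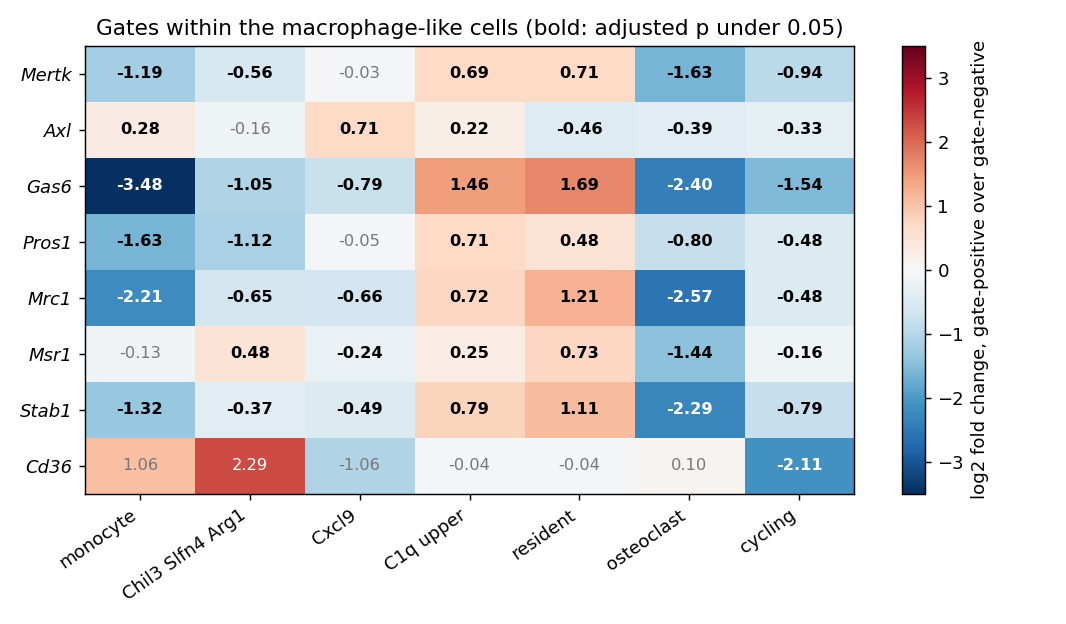
Log2 fold change of 8 genes (rows) between gate-positive and gate-negative macrophage-like cells for 7 gates (columns), in color and as printed values, bold where the adjusted p was under 0.05. Gas6 runs from -3.48 in the monocyte gate to 1.69 in the resident gate, and Axl from -0.46 in the resident gate to 0.71 in the Cxcl9 gate.

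**Figure D4:**
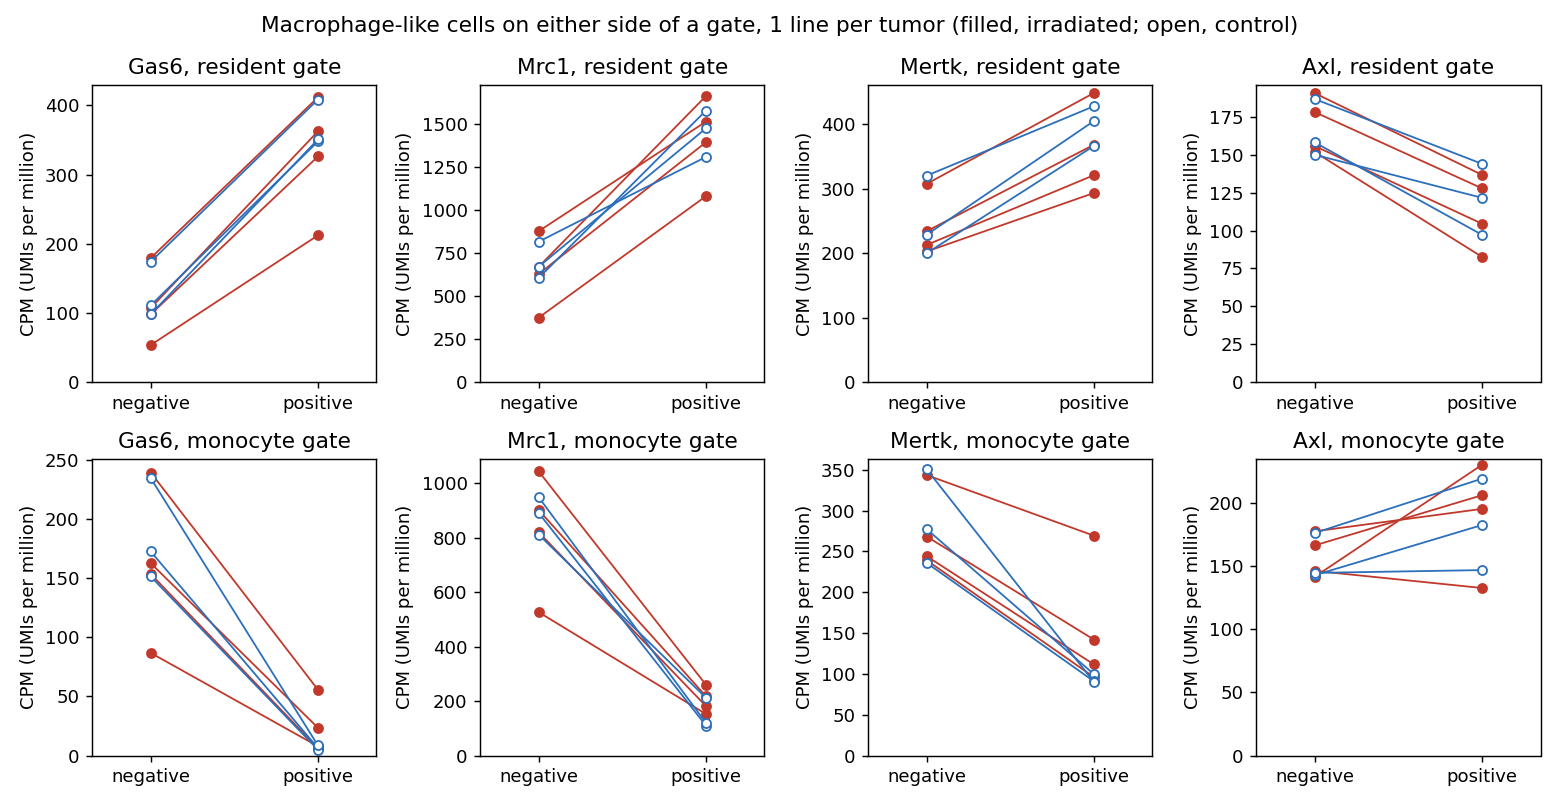
CPM (y axis) of Gas6, Mrc1, Mertk and Axl in gate-negative and gate-positive macrophage-like cells, joined by 1 line per tumor, for the resident gate and the monocyte gate. Between resident-gate-negative and resident-gate-positive cells the Axl lines go down in 7 of 7 tumors and those of Gas6, Mrc1 and Mertk go up in 7 of 7.

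The 7 macrophage-like clusters, which were drawn from the same cells and are described without a test, differed in the same genes. Cluster 1 (3427 cells), whose leading genes include Ccl8, F13a1, Cbr2 and Gas6 itself, held Mrc1 at 1345 to 2026, Gas6 at 339 to 548 and Mertk at 359 to 495 CPM across tumors. In cluster 15 (666 cells), led by S100a8, Chil3 and other genes that include Ly6c2, these stood at 29.4 to 221, 0 to 14.7 and 22.1 to 73.2, while Msr1 (169 to 307) and Axl (132 to 226) overlapped the ranges of cluster 1 (179 to 357 and 116 to 158). Cluster 5 (2148 cells), led by MHC class II genes with Il1b and Mgl2, had the highest mean Axl of the 7 (211 ± 21.5, SD, n = 7) beside an Msr1 of 139.6 ± 34.6. Shares of macrophage-like cells in clusters 0, 1, 5, 7, 13 and 15 did not overlap between the technical sets, and those in cluster 18 did. Cluster 1 made up 33.1% to 40.7% in the first set and 4.85% (irradiated tumor 4) to 20.2% in the second. Cluster 0, the largest, made up 9.88% to 11.7% in the first set and 50.04% to 57.9% in the second. For cluster 5 the shares were 21.03% to 28.8% and 2.602% to 8.85%. Cluster 15 made up 18.6% in irradiated tumor 4 and at most 8.96% elsewhere. The part of handling in these clusters was not tested.

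Dendritic-like cells had Axl and some Mrc1. Axl had a UMI in 38.0% of them at a median of 7390 UMIs, compared with 8.50% of T/NK-like cells at 3077, and Mrc1 in 19.4% compared with 3.99%. Mertk (3.43%), Gas6 (1.72%), Msr1 (3.92%) and Stab1 (5.39%) were near the 2.35%, 1.71%, 1.97% and 3.74% of the shallower T/NK-like cells, and are not read as expression. Without doublets Mertk averaged 12.3 ± 17.8 CPM in dendritic-like and 2.43 ± 1.66 in T/NK-like cells (SD, n = 7), and the shares were not recomputed without them. Mrc1 varied between tumors, from 22.2 CPM in irradiated tumor 4 and 33.3 in control tumor 2 to 191 in irradiated tumor 3. The 14 macrophage markers in dendritic-like cells summed to 2992 to 7424 CPM, and their part in the Mrc1 level was not tested. Only 19 cells passed the gate for type 1 dendritic cells and 71 that for mature dendritic cells, under 20 in every tumor, and the 251 cells in neither held Axl at a mean of 91.3 and Mrc1 at 133.

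Within the tumor cells Mertk had a wider fold range between clusters than Axl, and than Pros1 only with cluster 8 included. In MPNST-like clusters measured in at least 3 tumors, mean Mertk ranged from 3.38 CPM in cluster 8 to 71.4 in cluster 11. Pros1 ranged from 22.6 in cluster 19 to 84.6 in cluster 2, which is led by Eln, Mest and Cilp2, and Axl from 81.6 in cluster 11 to 172 in cluster 19. Pooled over tumors, Mertk in these clusters without cluster 8 ran from 19.98 in cluster 6 to 70.9 in cluster 11. That fold range was no wider than the one of Pros1. Cycling-gate cells, 11.3% of the 15986 MPNST-like cells deep enough, held Mertk at 23.9 ± 4.70 against 43.4 ± 3.55 CPM (SD, n = 7, log2 fold change -0.75 ± 0.08, adjusted p = 2.3e-06) and Pros1 at 27.4 ± 4.99 against 51.7 ± 7.76 (-0.84 ± 0.06, adjusted p = 6.3e-08), both without overlap. Axl was 129 ± 20.5 against 125 ± 23.2 and was called higher (0.15 ± 0.05, adjusted p = 0.0087, in 5 of 7 tumors), a call lost with total UMIs in place of TMM (0.05, adjusted p = 0.29) and with all genes kept (adjusted p = 0.086). The background was high, 35.7% of 14638 genes higher and 38% lower, and 1 member higher and 2 lower of 7 tested lies below it.

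Mertk was low in the clusters with the least Malat1, a nuclear noncoding RNA, though not only there. Among MPNST-like clusters, cluster 8 had the lowest Malat1 (1853 CPM), a median of 3562 UMIs per cell and a pooled Mertk of 4.40, with Axl at 94.6. Cluster 2, with the highest Malat1 (27790.5), had Mertk at 56.8 and Axl at 144. Among macrophage-like clusters cluster 7 had the fewest UMIs (median 1501), the lowest Malat1 (9409.5) and Mertk at 89.9. Cluster 1, with Ccl8 and Cbr2 also among its leading genes, had the highest Mertk (442) at a Malat1 of 18622. Malat1 was higher than that in clusters 0 (20823), 5 (20447) and 18 (19840), where Mertk was 270, 275 and 92.8. Low Mertk also stood beside high Malat1 in cluster 15, with the highest Malat1 of the 7 (27123) and Mertk at 62.7. The same held for the 89 cells of MPNST-like cluster 27 (24092 and 13.8). The shallowest MPNST-like cluster, 21 (median 1063 UMIs), had Malat1 at 19539.7 and Mertk at 47.2. The part of nuclear RNA content in the Mertk levels was not tested.

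Over 46 profiles of macrophage-like clusters by tumor and 7941 genes, the genes most like each member were named by Pearson's r, as a description over profiles that share tumors and depth. Mertk was most like Abca1 (r = 0.955), a cholesterol efflux pump, and Itga9 was also among the 3 genes most like it. Gas6 was most like Selenop (0.955), Trem2 (0.954) and Camk1. Mrc1 was most like Adgre1 (0.934), which encodes F4/80, and Stab1 most like Nrp1 (0.945), Lamp1 and Ctsb. Axl (Specc1l, 0.807), Msr1 (Snx2, 0.845) and Pros1 (Colgalt1, 0.881) had looser neighbours, and for Cd36 the highest was 0.604 (Ccl6).

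Of 70 other genes of clearance in 7 lists, 53 could be tested in the resident gate, of which 18 were higher and 12 lower, beside 16.5% and 16.6% of all genes tested. Cd163, a hemoglobin scavenger receptor, was 20.2 against 2.24 CPM (log2 fold change 3.21 ± 0.39, adjusted p = 0.00035, in 7 of 7 tumors). Of 6 receptors for find-me signals, which dying cells release to attract phagocytes, 4 were higher and 1 lower, with S1pr1 at 1.56 ± 0.18. Olr1 (-2.10 ± 0.29), a receptor for oxidized lipoprotein, Itgb3 (-1.59 ± 0.31), Mgl2 (-1.18 ± 0.16), Pparg (-1.17 ± 0.14) and Clec7a (-0.98 ± 0.10) were lower. The median log2 fold change over these 53 genes was 0.02, beside -0.01 over all genes tested.

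In monocyte-gate cells the other clearance genes went both ways. Of 54 list genes tested 18 were higher and 14 lower, beside 15.8% and 16.6% of all genes (median 0.08, beside -0.06 over all genes). Thbs1, a thrombospondin that bridges apoptotic cells to Cd36 and integrins, was 859.6 against 249.8 CPM (log2 fold change 1.77 ± 0.08, adjusted p = 7.2e-31), and Cd300lf, a lipid receptor on myeloid cells, differed by 1.69 ± 0.11. Cd24a, a do-not-eat-me signal, differed by 3.37 ± 0.43 and Clec7a by 1.57 ± 0.15, both higher. Of the find-me receptors 1 was higher and 4 lower, with P2ry12 at -1.03 ± 0.15, and Abca1 fell by 1.00 ± 0.13. In the upper C1q gate 21 of 53 were higher and 12 lower, beside 19.6% and 19.8% of all genes (median 0.03, beside -0.01), including 4 higher and 0 lower of 6 find-me receptors, with P2ry12 at 0.68 ± 0.06 and Cx3cr1 at 0.67 ± 0.08.

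In osteoclast-gate cells Itgb3, Edil3 and Mfge8 were higher, but most of the list genes called were lower. Of 11 receptors and bridges for dying cells tested, 5 were higher and 5 lower. Of 53 list genes 9 were higher and 30 lower, beside 19.2% and 25.7% of all genes (median -0.57, beside -0.06 over all genes). Itgb3, an integrin subunit of osteoclasts that also takes part in binding dying cells, was 43.5 against 0.715 CPM (5.75 ± 0.25, adjusted p = 2.4e-11), and the integrin ligands Edil3 (2.44 ± 0.25) and Mfge8 (2.09 ± 0.20) were higher in 7 of 7 tumors. Mgl2 fell by 3.90 ± 0.39, Thbs1 by 2.81 ± 0.46 and Cx3cr1 by 2.26 ± 0.14. The Chil3 Slfn4 Arg1 gate had 14 higher and 5 lower of 54, beside 11.4% and 7.57% of all genes, with Thbs1 (1.65 ± 0.07) and Cd300lf (1.18 ± 0.10) among those higher. The Cxcl9 gate had 6 and 6 of 54, beside 4.12% and 2.73%, with Nr1h3 (0.86 ± 0.21) and its target Abcg1 (0.56 ± 0.10) higher and Lrp1 (-0.41 ± 0.07) lower. Cycling macrophage-like cells had 2 higher and 32 lower of 52, beside 22.6% and 24.8% of all genes. Cycling MPNST-like cells had 11 higher and 24 lower of 50, beside 35.7% and 38% of all genes (median -0.23, beside -0.03 over all genes). A smaller share of the lists than of all genes was thus higher and a larger share lower. Abca1 (-2.39 ± 0.11), Colec12 (-1.75 ± 0.06) and Edil3 (-1.66 ± 0.07) were among those lower.

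Irradiated and control tumors were then compared to ask whether the genes differed with radiation on day 21. By edgeR no member that passed the filter on low counts was called in any of 4 cell groups. In macrophage-like cells 0% of 13047 genes were called, with 736 at an unadjusted p under 0.05, and DESeq2 called 5, none of them a member. Gas6 averaged 152 ± 68.8 CPM in 4 irradiated and 187 ± 41.9 in 3 control tumors (SD, log2 fold change -0.33 ± 0.37, adjusted p = 0.86). The log2 fold change was -0.28 ± 0.25 for Pros1, -0.19 ± 0.25 for Mrc1, -0.13 ± 0.19 for Mertk, -0.09 ± 0.16 for Stab1, 0.00 ± 0.12 for Axl and 0.17 ± 0.29 for Cd36. Msr1 had the largest positive value, 232 ± 41.1 against 188 ± 33.9 (0.28 ± 0.17, adjusted p = 0.8), and irradiated tumor 1, at 170.3, lay inside the control range. In simulated counts for this comparison the test recovered 61% of genes changed 2-fold, with 9 false calls, and 0.5% of those changed 1.5-fold, with 0. The changed genes were drawn at random from all genes tested, so a change of 1.5-fold would rarely be called for such genes. These rates were not measured for the members themselves. Of the 70 other clearance genes 0 of 56 tested were called.

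Irradiated tumor 4 had the lowest Mertk, Axl, Gas6, Pros1, Mrc1 and Stab1 of the 7 in macrophage-like cells, by a small margin for Axl. In the same tumor monocyte-gate cells were 24.6% of the gated macrophage-like cells, against 1.31 to 12.7% in the other 6, and resident-gate cells 10.8% against 15.6 to 24.7%. Within resident-gate cells alone, 158 in this tumor, its Gas6 (212 CPM against 326 to 412), Mrc1 (1079 against 1307 to 1661) and Mertk (293 against 321 to 449) were the lowest. The part of cell composition in these levels was not tested. The differences also turned with the technical sets: the log2 difference of irradiated minus control means was 0.27 for Gas6 in the first set (1 irradiated against 2 control tumors) and -0.42 in the second (3 against 1), and 0.23 and -0.30 for Mrc1, 0.34 and -0.28 for Stab1, 0.24 and -0.52 for Pros1 and 0.24 and -0.19 for Mertk. Msr1 (-0.06 and 0.26) and Cd36 (-0.75 and 0.49) turned the other way, and Axl (0.12 and 0.08) kept its sign. The 10 fibroblast markers in macrophage-like cells summed to 261 to 305 CPM in irradiated and 262 to 378 in control tumors, and their part in the Gas6 level was not tested.

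Monocyte-gate cells gave 0% of 5956 genes called (226 at an unadjusted p under 0.05, and 0 by DESeq2). Msr1 was 92.9, 261, 209 and 279 CPM in irradiated tumors 1 to 4 and 157, 147 and 150.2 in control tumors 1 to 3 (0.58 ± 0.23, adjusted p = 1), and the groups overlapped only through irradiated tumor 1 with its 20 cells. That tumor is also the only irradiated tumor of the first technical set. Its Msr1 over all macrophage-like cells, 170.3 CPM, lay inside the control range too. Gas6, Pros1 and Cd36 were too low to be tested in monocyte-gate cells. Dendritic-like cells gave 0% of 7008 genes (258 at an unadjusted p under 0.05, and 0 by DESeq2), with a log2 fold change of 0.13 ± 0.23 for Axl and 0.66 ± 0.76 for Mrc1. The 14 macrophage markers in dendritic-like cells summed to 4277 to 7424 CPM in irradiated and 2992 to 4075 in control tumors, without overlap. Msr1, too low for the main test there, was 8.03, 21.1, 21.5 and 7.41 CPM in irradiated tumors and 1.57, 0 and 0 in controls, from 31 UMIs in all, and was called higher when genes of low count were kept (adjusted p = 0.022). The part of the macrophage markers in these values was not tested.

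MPNST-like cells gave 0% of 17787 genes called (289 at an unadjusted p under 0.05, and 0 by DESeq2). For the members found mostly in these cells or shared with macrophages the log2 fold change was 0.02 ± 0.11 for Mertk, 0.03 ± 0.13 for Pros1 and 0.14 ± 0.13 for Axl. Mrc1 (-0.93 ± 0.39, adjusted p = 0.99) and Gas6 (-1.05 ± 0.50, adjusted p = 0.99) had larger values at levels no higher than 6.96 CPM. The 14 macrophage markers in the MPNST-like cells summed to 80.4 to 166 in irradiated and 163 to 219 in control tumors, and their part in these values was not tested.

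**Figure D5:**
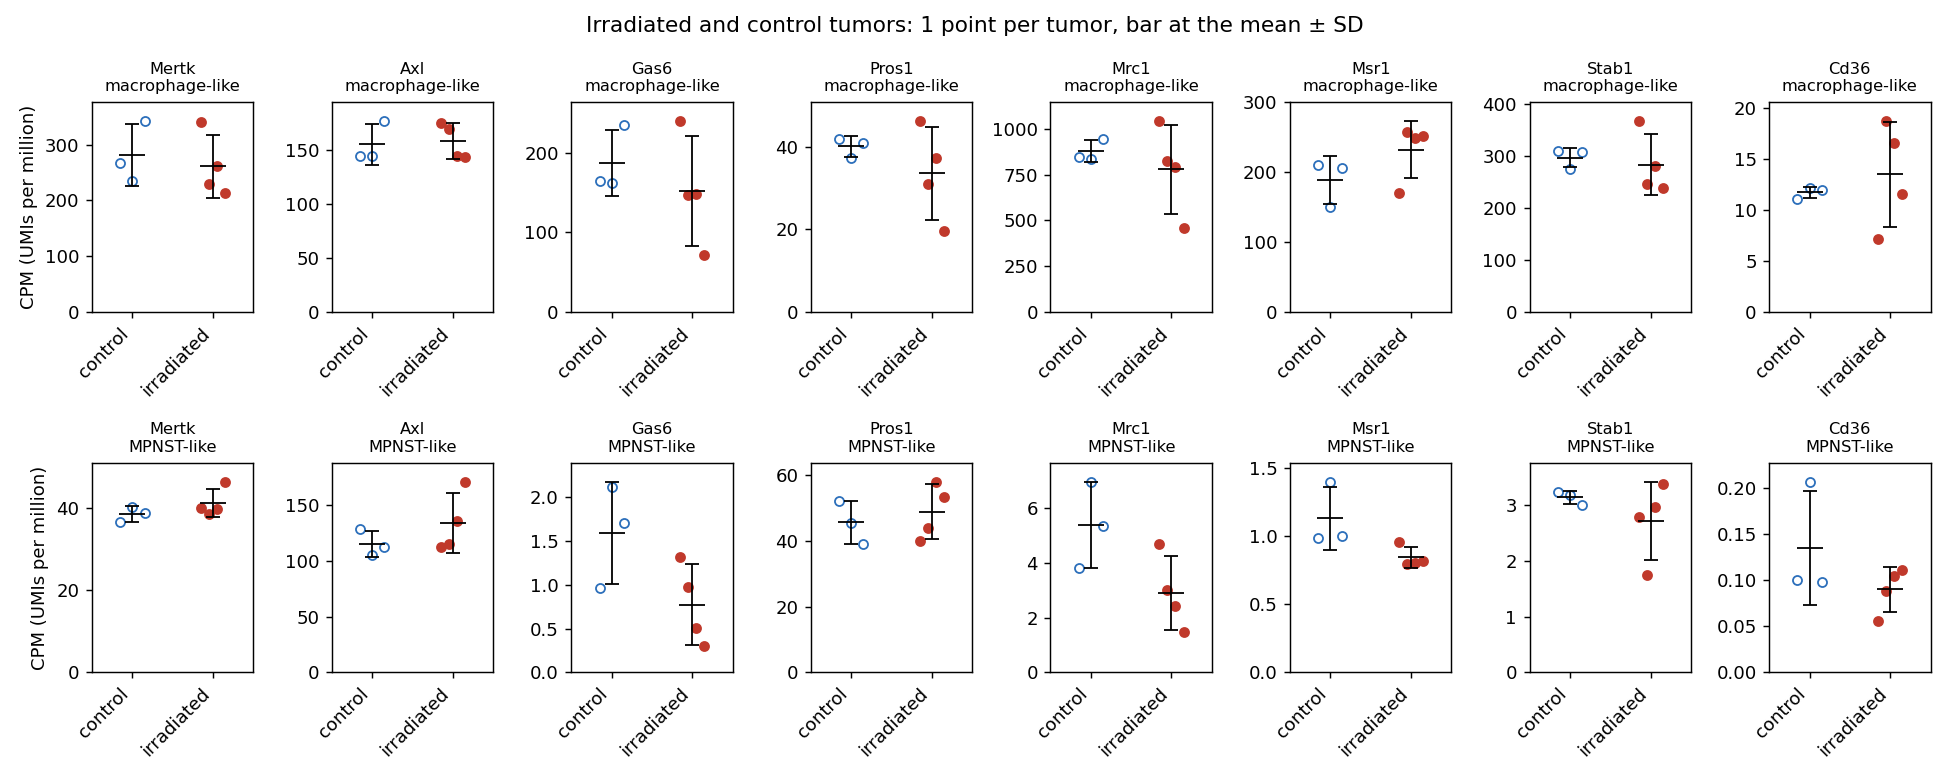
CPM (y axis) of the genes in control and irradiated tumors, with 1 point per tumor and a bar at the mean of each group ± SD. In macrophage-like cells the 4 irradiated and 3 control tumors overlap for every gene, and irradiated tumor 4 is the lowest point for Gas6 (72.04) and Mrc1 (456).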

How the data were processed

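Single-cell RNA-Seq was measured in 7 mouse tumors, 4 irradiated and 3 control, each a separate tumor and 1 replicate. The deposited values are whole UMI counts per gene and cell, which the authors made with Cell Ranger (version 8.0.0 in the matrix header). The submitters' processing notes also name Seurat 4.4 and build mm10. No normalization had been applied to the deposited counts, and libraries held 53496570 to 153044123 UMIs.

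Per library, cells were kept if log UMIs, log genes, mitochondrial share and ribosomal share each lay within 3 median absolute deviations of the median. Cells were clustered with scanpy 1.11.5 and leidenalg 0.10.2 in Python 3.11.15 (3000 variable genes without the 9 members, 30 principal components, 20 neighbours, resolution 1). A cluster was named when at least 3 markers of a list were present in at least 25% of its cells at 2-fold or more over other cells. MPNST-like clusters also needed Xist in under 25% of cells, the host being female, and their marker fold was taken over Xist-rich clusters. A cluster with at least 3 and 25% of the markers of a second host class stayed unnamed. The choice of cells for that fold and the rule on a second host class departed from the planned rule and were set after seeing the data. A cluster under 1/3 of the library median in UMIs, with no marker of its list among its leading genes, also stayed unnamed. This rule was not in the plan either, and it left out cluster 26 (131 cells), which had 8 macrophage markers. Scrublet doublets were kept in the main result and removed in an alternative.

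UMIs were summed per tumor and class or gate, with sums under 20 cells left out, and tested with edgeR 4.0.16 in R 4.3.3 (quasi-likelihood, robust, TMM factors, filterByExpr, tumor as a block for gates). P-values were adjusted by the Benjamini-Hochberg method over all genes tested, and genes were called at an adjusted p under 0.05. The fits were first tested on simulated data with 200 genes changed. For 2-fold changes 94% were recovered in the resident gate, with 19 false calls, and 64% in the osteoclast gate, with 8. For 1.5-fold changes these were 78% with 13 and 28% with 8. In each of these gate draws false calls were a larger share of calls than the 0.05 of the threshold. False calls were not measured for the members themselves. Alternatives were DESeq2 1.42.0, RLE factors, no filter on low counts, gates on unthinned UMIs, other Leiden resolutions, no doublets, a technical set term, a block on replicate number and leaving out each tumor. Total UMIs in place of TMM, and leaving out the shallowest macrophage-like cluster, were added after seeing the data. All members are named, with other clearance genes that passed the threshold (up to 10 per comparison by fold change) and the 3 genes most like each member by r of log2(CPM + 1). Some genes that this rule or a gate includes are not reported here. The members and lists were chosen with earlier results of these data known. Intervals and count limits cover counting error only.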

Additional observations from a re-analysis of the deposited data

Results flagged for a closer look

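In 9 of 82 groups of 4 irradiated tumors with at least 100 UMIs of the gene, 1 tumor stood apart from the other 3 by Dixon's criterion. Chance marks about 1 in 20 independent groups. These groups share cells, since a gate is part of its class and gates overlap, so 9 of 82 does not measure an excess. Irradiated tumor 1 gave 6 of the 9. Its Msr1 in macrophage-like cells was 170.3 CPM, beside 248 to 257 in the other 3, in MPNST-like cells 0.959 CPM, beside 0.797 to 0.818 in the other 3, and in the upper C1q gate 196 CPM, beside 242 to 250.02 in the other 3. Among cycling macrophage-like cells its Mertk was 229 CPM, beside 131 to 141 in the other 3 and its Gas6 133 CPM, beside 33.6 to 50.03 in the other 3. Among cycling MPNST-like cells its Gas6 was 1.81 CPM, beside 0.183 to 0.222 in the other 3. Irradiated tumor 2 had Gas6 in osteoclast-gate cells at 53.5 CPM, beside 23.1 to 24.8 in the other 3, from 24 cells, and Stab1 in cycling MPNST-like cells at 0.444 CPM, beside 2.50 to 2.91 in the other 3. Irradiated tumor 3 had Pros1 in fibroblast-like cells at 227 CPM, beside 131 to 139.5 in the other 3, from 39 cells.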

How the results depend on the processing

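Between irradiated and control tumors 1 member was called under 1 alternative, Msr1 in dendritic-like cells with all genes kept. Genes called in macrophage-like cells were 5 with DESeq2 and 0 to 1 with 1 tumor left out (1 without irradiated tumor 1). In monocyte-gate cells they were 9 with all genes kept, 1 without doublets and 0 to 1 with 1 tumor left out (1 without control tumor 3). In dendritic-like cells they were 78 with all genes kept and 0 to 5 with 1 tumor left out (5 without control tumor 1). Members called in the Cxcl9 gate were 3 to 4 with 1 tumor left out (main 5) and in the cycling gate of MPNST-like cells 3 to 5 (main 3, 5 without irradiated tumor 2). Of the log2 fold changes in gates, 604 of 685 kept direction and side of the threshold, 48 lost a call and 9 gained 1. Of 189 class levels 2 moved by more than 1 SD: without doublets Mertk in T/NK-like cells was 2.43 CPM and Axl 21.2.

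The block on replicate number called 2 genes in monocyte-gate cells and changed no other count of calls. Same-numbered tumors did not deviate together (for numbers 1 to 3, correlations of -0.257, -0.147, -0.0259 in macrophage-like cells, and of -0.458, 0.0046, 0.101 among MPNST-like cells). No irradiated tumor correlated best with the control of its own number, so no pairing by number was seen. Same-numbered tumors always fell in different technical sets, so these correlations cannot exclude a pairing. Under the block Axl in monocyte-gate cells was 0.19 and Mertk in MPNST-like cells -0.00385.

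Log2 fold changes that changed sign had not been called, and the cause was not tested. Between irradiated and control tumors, the technical set term gave 0.00629 for Mertk, 0.0046 for Stab1 and -0.0632 for Cd36 in macrophage-like cells, 0.0147 for Axl in monocyte-gate cells, -0.0012 for Axl in dendritic-like cells and -0.0636 for Pros1 in MPNST-like cells. Axl in monocyte-gate cells was 0.0306 with all genes, 0.0191 with total UMIs and 0.00662 without doublets. In gates, DESeq2 gave 0.0347 and -1.12 for Cd36 in the upper C1q and osteoclast gates and 0.013 for Mertk in the Cxcl9 gate, and unthinned gates gave 0.0613 for Cd36 in the resident gate and 0.11 for Stab1 in cycling MPNST-like cells. With 1 tumor left out the irradiated comparison ranged, in macrophage-like cells, from -0.30 to 0.0452 for Mertk, -0.0576 to 0.12 for Axl, -0.38 to 0.0023 for Mrc1 and -0.0271 to 0.37 for Cd36, in monocyte-gate cells from -0.12 to 0.19 for Axl, in dendritic-like cells from -0.0272 to 0.24 for Axl and -0.0236 to 0.64 for Cd36, and in MPNST-like cells from -0.0626 to 0.0865 for Mertk and -0.0545 to 0.0941 for Pros1. In gates it ranged from -0.40 to 0.26, -0.15 to 0.15 and -0.63 to 0.42 for Cd36 in the upper C1q, resident and osteoclast gates, -0.0735 to 0.0673 for Mertk and -0.26 to 0.0479 for Pros1 in the Cxcl9 gate, and -0.13 to 0.0687 for Stab1 in cycling MPNST-like cells. The planned test in the Trem2 Gpnmb gate was not run, for lack of cells. The few UMIs of Cd36 and Marco in macrophage-like cells limit what can be shown for both.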

Other observations

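Cluster 22, which stayed unnamed, held 452 cells, of which 92.3% were Scrublet doublets. Its mean over tumors was 124 CPM for Mertk, 134 for Axl, 306 for Mrc1 and 60.3 for Gas6.

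Msr1 in Chil3 Slfn4 Arg1-gate cells, singled out after its values were seen and not tested, was 340.0, 349.6 and 346 CPM in irradiated tumors 2 to 4 and 232, 200.2 and 216 in control tumors 1 to 3. Irradiated tumors 2 to 4 and control tumor 1 belong to the second technical set and control tumors 2 and 3 to the first, and irradiated tumor 1 was left out with 18 cells.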
